A study of Mus musculus with 16 samples.

Results

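The genes described here are those of the interferon system: receptors, signalling proteins and induced genes, measured in EMP3 mutant mouse tissue on 2-colour cDNA microarrays. A probe was taken as a member where its gene symbol in the platform annotation began with Ifn, Ifi, Ifit, Ifitm, Irf, Isg, Oas, Stat, Jak, Mx, Gbp or Socs in the numbered form of the family. This gave 54 probes for 43 genes, of 20794 probes in all, of which 12771 carried a symbol of 9030 genes. By role they were 5 receptor probes, 5 Jak kinase probes, 6 Stat probes, 11 interferon regulatory factor probes, 6 Socs probes and 21 probes for induced genes. No probe was annotated to an interferon itself. The symbol rule also took in Irf2bp1, which encodes a corepressor that binds Irf2 and is counted among the regulatory factors here.

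Interferons are cytokines released after infection. Type I interferons bind a receptor made of Ifnar1 and Ifnar2, and interferon gamma binds a receptor made of Ifngr1 and Ifngr2. Janus kinases on these receptors phosphorylate Stat proteins, which enter the nucleus, in part together with Irf9, and switch on induced genes such as the Oas, Ifit, Ifitm and Gbp families. Socs proteins damp the signal. In spleen and thymus, interferon signalling is known for its part in the defence by macrophages and dendritic cells and in the activation of lymphocytes.

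The mutant group held the spleens and thymuses of 4 male EMP3 mutant mice aged 17 weeks, and the control was a pool of RNA from male wild-type mice of the same age and tissue. EMP3 belongs to the PMP22 family of membrane proteins, and the labels do not give the kind of mutation. The pool is listed with 4 mice in the sample labels and with 6 in the labelling protocol. Every mouse and tissue had an array with the mutant RNA in Cy5 and an array with it in Cy3, each against the pool, which gave 16 arrays, 8 per tissue. The series title speaks of thymus and brain where the samples are labelled spleen and thymus, and the sample labels are used here.

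Values are log ratios, read as log2 of mutant over pool. Neither the base nor the direction is stated, and the direction is the likely one from the design text. With the pool as numerator, every "higher" below becomes "lower" and every "lower" becomes "higher". Averaging each dye-exchanged pair gave 1 replicate per mouse. The thymus pair of mouse 2 held mirrored values (Pearson's r = -0.92 across probes) and was not used, so n was 4 mice in spleen and 3 in thymus. Each array gave 20046 to 20639 measured probes and had a median between -0.02 and 0.09. Between spleen arrays of different mice, the median of Pearson's r was 0.47 with the mutant in the same dye and 0.22 in the other dye. Within a pair, r ran between 0.05 and 0.42 for spleen, and its median of 0.20 was no higher than between mice. For the thymus mice kept, r within a pair ran between -0.44 and -0.25. Thymus thus does not settle whether the sign on the arrays with the mutant in Cy3 had already been turned, as taken here. With those arrays turned, 0 members and 1 of all probes passed the threshold in spleen (4217 of all probes had an unadjusted p under 0.05 in limma, against 8031 as read here), and the direction of several members reversed. Ratios carry no level, so the tissues could not be checked against marker levels. Without deposited intensities the depth is unknown, and precision is limited by how many arrays and mice there were. In whole tissue, fewer cells of a type and less RNA per cell cannot be told apart.

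In spleen, 10 of the 52 member probes tested were higher and 3 were lower at an adjusted p under 0.05 in limma, 13 in all. The background was of the same size: 5086 of 20127 probes on the arrays (25.3%) passed, 13.4% higher and 11.9% lower. The count of members that passed is therefore no result about interferon genes as a group. The probes with the largest ratios were Ifnar2 probe 19223, higher by 1.07 on the log2 scale, and Irf2 probe 26, which fell by 0.89. All 13 had 1 sign in every mouse measured, and 6 had 1 sign on every spleen array. The test itself selects for agreement between mice, and neither count was set against all probes that passed. The test compares mutant mice with a single pool and leaves out the spread between control mice. With a pool variance like that of the mutants added, 3 members passed, Ifnar2, Irf2 and Irf5. Without mouse 2, 3 or 4 in turn, 5, 8 and 4 of the 13 passed and no other member did. Without mouse 1, 9 of the 13 passed, and 4 other probes did too: Stat3 probe 9068 at 0.33, Irf8 probe 5593 at 0.48, Ifitm3 at 0.29 and Irf2bp1 probe 16884 at 0.26 (adjusted p of 0.0306 to 0.0411 in limma). A mean fitted over both tissues with 1 shared spread called 22 members and 7577 probes in all.

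In thymus, 0 of 53 members passed, and 0 of all 20130 probes (0.0%). At an unadjusted p under 0.05 in limma, 0 members and 725 of all probes were counted, and with the Cy3 arrays turned 2164 of all probes. Member means in thymus lay between -0.15 and 0.12, against -0.89 to 1.07 in spleen. Across all probes the averaged ratios also spread less in thymus, with an SD over probes of 0.0835, against 0.305 in spleen. Single arrays were less far apart, with SDs of 0.23 to 0.43 in thymus and 0.38 to 0.70 in spleen. The arrays of a thymus pair correlated below 0, so averaging them cancels part of their values. How much of the small size of the thymus means comes from this was not tested.

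**Figure D1:**
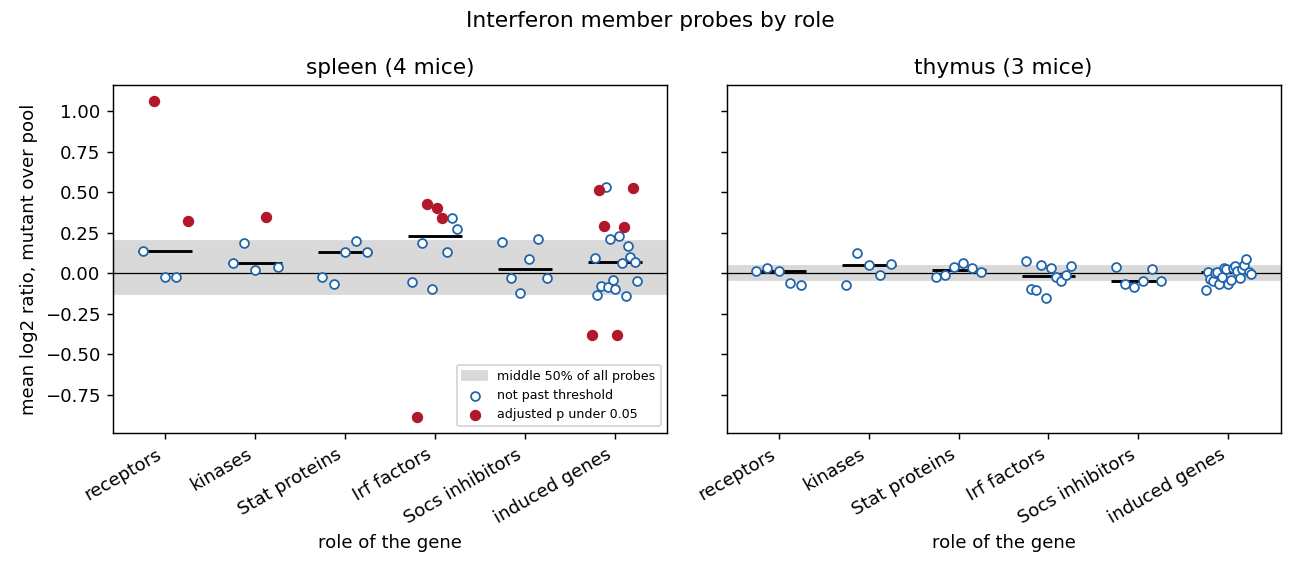
Mean log2 ratio of mutant over pool (vertical axis) for each member probe, sorted by role (horizontal axis), in spleen (left, 4 mice) and thymus (right, 3 mice). Filled points passed an adjusted p of 0.05 in limma, black bars are role medians and the grey band spans the middle 50% of all probes. In spleen 13 points are filled, from -0.89 for Irf2 to 1.07 for Ifnar2, and in thymus none is.

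Receptors and signalling genes were set against induced genes. In spleen, 7 of 31 receptor and signalling probes passed (22.6%, 6 higher and 1 lower), against 6 of 21 induced probes (28.6%, 4 higher and 2 lower). The median log2 ratio was 0.13 for receptors and signalling, 0.07 for induced genes and 0.04 for all probes. By mouse, the median of receptors and signalling was 0.14, 0.17, 0.09 and 0.07 in mice 1 to 4, and that of induced genes was 0.05, 0.11, -0.06 and 0.11. Receptors and signalling were above induced genes in mice 1 to 3 and below them in mouse 4. With the Cy3 arrays turned the medians were 0.07 and -0.03, and after removal of a running median over neighbouring probe IDs they were 0.05 and 0.08, which put the induced genes on top. In thymus the medians were 0.001 for receptors and signalling, 0.009 for induced genes and 0.004 for all probes.

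Among the receptors, Ifnar2, the chain of the type I interferon receptor that binds the ligand with high affinity, had 3 probes. Probe 19223 had spleen log2 ratios of 1.37, 1.04, 0.90 and 0.95 in mice 1 to 4. Each of the 8 spleen arrays was higher in the mutant, between 0.81 and 1.46. The mean was 1.07 ± 0.21 (SD, n = 4), a 2.09-fold higher signal (adjusted p = 0.00401 in limma). With the mutant in Cy5 the mean was 1.09 and with the mutant in Cy3 it was 1.04, so the dyes gave nearly the same size. Thymus mice 1, 3 and 4 had 0.21, -0.09 and -0.001, with no overlap with spleen. Spleen exceeded thymus by 1.03 ± 0.13 (SE; adjusted p = 0.0056 in limma). The other Ifnar2 probes did not share this. Probe 5222 was at -0.12, 0.10, -0.16 and 0.11 in spleen, a mean of -0.02 ± 0.14 (SD, n = 4; adjusted p = 0.869 in limma). Probe 18954 was at -0.19, 0.58, 0.22 and -0.04, a mean of 0.14 ± 0.34 (SD, n = 4; adjusted p = 0.472 in limma). The mice had both signs at each of them, and their thymus means were 0.02 and 0.01.

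The interferon gamma receptor was represented by 1 probe for each chain. Ifngr2, the signal-transducing chain, was at 0.35, 0.17, 0.51 and 0.27 in spleen mice 1 to 4, all above 0. The mean was 0.32 ± 0.15 (SD, n = 4), 1.25-fold higher (adjusted p = 0.0288 in limma). It was at 0.12 with the mutant in Cy5 and at 0.53 with the mutant in Cy3, and single arrays ran from -0.38 to 1.07. Thymus mice 1, 3 and 4 were at -0.14, -0.01 and -0.05, all below 0, and spleen exceeded thymus by 0.39 ± 0.10 (SE; adjusted p = 0.0348 in limma). Ifngr1, the ligand-binding chain, was at -0.15, -0.07, 0.09 and 0.04 in spleen, a mean of -0.02 ± 0.11 (SD, n = 4; adjusted p = 0.835 in limma), and the mice had both signs. Leaving out any 1 of the 4 mice, Ifngr2 missed the threshold in spleen (adjusted p between 0.0545 and 0.0851 in limma), and with the running median removed its ratio was 0.20 (adjusted p = 0.131). Ifnar2 probe 19223 passed without each mouse in turn, at 0.97 to 1.12. Ifnar2 and Ifngr2 lie on chromosome 16 with 2 protein-coding genes between them in the RefSeq annotation.

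Of the Janus kinases, which start the signal on these receptors, 1 of 5 probes passed in spleen and the role median was 0.06. Jak3, the kinase of the common gamma chain of interleukin receptors, was at 0.51, 0.43, 0.09 and 0.37 at probe 14690, with mouse 3 the lowest. The mean was 0.35 ± 0.18 (SD, n = 4), 1.27-fold higher (adjusted p = 0.0325 in limma). The other Jak3 probe, 623, was at 0.14, 0.17, 0.01 and -0.14, a mean of 0.04 ± 0.14 (SD, n = 4; adjusted p = 0.709 in limma). Probe 14690 missed the threshold without mouse 1, 2 or 4 (adjusted p up to 0.114 in limma) and passed without mouse 3. In thymus the Jak3 probes were at -0.01 ± 0.05 and 0.06 ± 0.13 (SD, n = 3).

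Jak1, the kinase that both interferon receptors use, was at 0.23, 0.18, 0.14 and 0.21 at probe 6169 in spleen, a narrow range above 0. Its mean of 0.19 ± 0.04 (SD, n = 4) missed the threshold (adjusted p = 0.0634 in limma). This probe also had the smallest p among the members in thymus, at 0.21, 0.11 and 0.05 in mice 1, 3 and 4, a mean of 0.12 ± 0.08 (SD, n = 3; unadjusted p = 0.0549, adjusted p = 0.866 in limma). After removal of the running median its spleen ratio was -0.01. Jak1 probe 19432 was at -0.03, 0.02, -0.08 and 0.35 in spleen, high in mouse 4 alone. Jak2, the kinase of the interferon gamma receptor's second chain, was at 0.03, 0.06, 0.003 and -0.01, a mean of 0.02 ± 0.03 (SD, n = 4; adjusted p = 0.818 in limma).

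None of the 5 Stat probes tested in spleen passed, and none had an unadjusted p under 0.05 in limma. Stat2, a partner of Irf9 in type I interferon signalling, was at 0.004, -0.03, 0.05 and -0.11, a mean of -0.02 ± 0.07 (SD, n = 4; adjusted p = 0.823). Stat4, which carries interleukin-12 signals, was at 0.45, 0.39, -0.08 and 0.05, so mice 1 and 2 stood above mice 3 and 4, and its mean of 0.20 ± 0.26 (SD, n = 4) had an adjusted p of 0.215. Stat3, known for signals of the interleukin-6 family, was at -0.29, 0.02, 0.08 and -0.07 at probe 1095. Probe 9068 was at -0.45, 0.43, 0.30 and 0.25, with mouse 1 alone below 0. That mouse was at 0.15 in Cy5 and at -1.04 in Cy3, so its low mean came from 1 array. Without mouse 1, probe 9068 was at 0.33 and passed (adjusted p = 0.0306 in limma), against 0.13 ± 0.39 (SD, n = 4) with it. Stat5a, a target of growth hormone and interleukin-2 signals, was at 0.19, 0.25, 0.10 and -0.01, a mean of 0.13 ± 0.11 (SD, n = 4; adjusted p = 0.212). Stat5b, its close relative, had a value on both arrays in spleen mouse 4 alone, at -0.33, and was not tested there. In thymus it was at 0.55, -0.39 and -0.14, which had both signs.

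The interferon regulatory factors are transcription factors that bind the promoters of interferons and of induced genes. Of the 10 probes tested in spleen, Irf5, Irf7 and Irf2bp1 probe 18861 were higher and Irf2 was lower, and the role median of 0.23 was the highest of the 6 roles. Irf3 had no mouse with values on both arrays in either tissue and was not tested.

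Irf2, a factor that competes with Irf1 for its sites and represses induced genes, was at -0.60, -1.08, -1.06 and -0.80 in spleen mice 1 to 4. All 8 spleen arrays lay below 0, between -1.23 and -0.55. The mean was -0.89 ± 0.23 (SD, n = 4), a 1.85-fold lower signal (adjusted p = 0.00413 in limma), with -0.80 in Cy5 and -0.97 in Cy3. Thymus mice 1, 3 and 4 were at -0.07, -0.11 and -0.11, a mean of -0.09 ± 0.02 (SD, n = 3; unadjusted p = 0.0775, adjusted p = 0.866 in limma). The ranges did not overlap, and spleen minus thymus was -0.79 ± 0.13 (SE; adjusted p = 0.00891 in limma). In spleen the probe passed without each mouse in turn (-0.98 to -0.82). Irf1, the activator that Irf2 competes with, was at 0.24, -0.16, -0.14 and -0.16, so mouse 1 alone was above 0, and its mean was -0.05 ± 0.20 (SD, n = 4; adjusted p = 0.699 in limma).

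Irf5, a factor of Toll-like receptor signalling in myeloid and B cells, was at 0.42, 0.43, 0.33 and 0.43 in spleen. This was the narrowest spread among the 13 members that passed: the mean was 0.40 ± 0.05 (SD, n = 4), 1.32-fold higher (adjusted p = 0.00705 in limma). Thymus values of 0.02, 0.01 and 0.06 lay below every spleen value, and the difference was 0.37 ± 0.07 (SE; adjusted p = 0.0142 in limma). The spleen call held without each mouse in turn. Irf7, the main amplifier of type I interferon production, was at 0.64, 0.32, 0.17 and 0.24, highest in mouse 1, with a mean of 0.34 ± 0.20 (SD, n = 4), 1.27-fold higher (adjusted p = 0.0417 in limma). Its thymus values were 0.01, -0.03 and -0.05. Irf7 passed in 1 of the 4 fits that left out a mouse, and its adjusted p was 0.115 without mouse 2.

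Irf2bp1 probe 18861 was at 0.47, 0.18, 0.84 and 0.24, a mean of 0.43 ± 0.30 (SD, n = 4), 1.35-fold higher (adjusted p = 0.0470 in limma). The dye means were 0.84 with the mutant in Cy5 and 0.02 in Cy3. That gap came from mouse 3, whose arrays were at 2.44 in Cy5 and -0.76 in Cy3, and over mice 1, 2 and 4 the dye means were 0.31 and 0.28. It missed the threshold without any 1 of the mice (adjusted p of 0.0662 to 0.0948 in limma). The other Irf2bp1 probe, 16884, was at -0.04, 0.23, 0.27 and 0.28 in spleen, low in mouse 1, with a mean of 0.19 ± 0.15 (SD, n = 4; adjusted p = 0.131 in limma). In thymus probe 16884 was at -0.08, -0.08 and -0.15, a mean of -0.10 ± 0.04 (SD, n = 3; adjusted p = 0.866 in limma). Irf4, a factor of plasma cells and activated lymphocytes, was at -0.39, 0.19, -0.19 and 0.01 in spleen and at -0.34, -0.07 and -0.05 in thymus, with mouse 1 lowest in each tissue. The probes for Irf8, a factor of dendritic cell development, and for Irf9 had spleen means of 0.34, 0.13 and 0.28 and adjusted p of 0.118, 0.179 and 0.140 in limma.

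None of the 6 Socs probes passed in spleen, and their median was 0.03. Socs1, the strongest inhibitor of Jak signalling after interferon, was at 0.16, 0.26, 0.20 and 0.16, all above 0. Its mean of 0.20 ± 0.05 (SD, n = 4) had an adjusted p of 0.0584 in limma. Socs7 probe 10501 was at 0.27, 0.10, 0.40 and 0.07, a mean of 0.21 ± 0.15 (SD, n = 4; adjusted p = 0.101 in limma), and the other Socs7 probe, 18158, at -0.03 ± 0.11. The remaining Socs2 and Socs5 probes had means between -0.12 and 0.09.

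Of the 21 probes for induced genes, 4 were higher and 2 were lower in spleen. This class follows gene symbols, and whether interferon induces each gene in it, such as Isg20l2 or Ifitm10, was not tested. Ifi27, a small mitochondrial protein induced by type I interferon, was at 0.75, 0.28, 0.57 and 0.46 and above 0 on all 8 arrays. The mean was 0.51 ± 0.19 (SD, n = 4), 1.43-fold higher (adjusted p = 0.0111 in limma). Thymus mice were at -0.17, 0.10 and -0.08, below every spleen value, and the difference was 0.56 ± 0.12 (SE; adjusted p = 0.0225 in limma). Ifi27 passed in spleen without each mouse in turn. Ifi27l2a, its neighbour on chromosome 12, had a mean of -0.08 ± 0.14 (SD, n = 4; adjusted p = 0.490 in limma).

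Ifitm2, a membrane protein that hinders the entry of viruses, was at -0.46, -0.21, -0.42 and -0.44 in spleen, weakest in mouse 2. The mean was -0.38 ± 0.12 (SD, n = 4), 1.30-fold lower (adjusted p = 0.0139 in limma), with -0.22 in Cy5 and -0.54 in Cy3. In thymus it was at 0.05, -0.09 and -0.08, and spleen minus thymus was -0.34 ± 0.09 (SE; adjusted p = 0.0441 in limma). Its neighbours on chromosome 7 had the other sign: Ifitm1 was at 0.28, 0.11, 0.25 and 0.20 (0.21 ± 0.07 SD, n = 4; adjusted p = 0.0542 in limma) and Ifitm3 at 0.03, 0.33, 0.32 and 0.23 (0.23 ± 0.14 SD, n = 4; adjusted p = 0.0726 in limma). The 3 genes are close paralogs, and how far a cDNA probe tells them apart was not tested. Without mouse 4, Ifitm2 had an adjusted p of 0.0649 in limma.

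Gbp8, a guanylate-binding protein, was at -0.37, -0.37, -0.23 and -0.56 in spleen, a mean of -0.38 ± 0.13 (SD, n = 4), 1.30-fold lower (adjusted p = 0.0158 in limma). Thymus values of -0.29, 0.12 and -0.13 overlapped with these. Ifi30, a thiol reductase of antigen processing, was at 0.17, 0.29, 0.36 and 0.34, a mean of 0.29 ± 0.09 (SD, n = 4), 1.22-fold higher (adjusted p = 0.0243 in limma), and was above 0 on all 8 arrays. Gbp8 passed in 2 and Ifi30 in 1 of the 4 fits that left out a mouse, with adjusted p of 0.0651 and 0.0993 without mouse 4. Isg20l2, an exonuclease named for its likeness to Isg20, was at 0.17, 0.36, 0.24 and 0.38 at probe 10947 (0.29 ± 0.10 SD, n = 4; adjusted p = 0.0276 in limma). Its other probe, 1375, was below 0 in all 4 mice, with a mean of -0.14 ± 0.05 (SD, n = 4; adjusted p = 0.133 in limma). Probe 10947 passed in 1 of the 4 fits that left out a mouse, and its adjusted p was 0.111 without mouse 4.

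Of the oligoadenylate synthetase genes, which sense double-stranded RNA, only the Oas1h probe passed in spleen. It had a value on 1 of the 2 arrays of mouse 1, which was left out of the test, and was at 0.77, 0.29 and 0.53 in mice 2 to 4, a mean of 0.53 ± 0.24 (SD, n = 3), 1.44-fold higher (adjusted p = 0.0278 in limma). The dyes differed: over mice 2 to 4 the mean was 1.08 with the mutant in Cy5 and -0.03 with the mutant in Cy3. Without mouse 2, 3 or 4 it could not be tested. The Oas1 genes are close paralogs in a cluster on chromosome 5, and how far their probes tell them apart was not tested. Oas1a, Oas1f and Oas2 had means of 0.17, 0.10 and 0.07, and Oasl1, which ranged from -0.80 in mouse 3 to 0.60 in mouse 2, had a mean of -0.05 ± 0.59 (SD, n = 4; adjusted p = 0.893 in limma). Ifi35 had the highest mean of the induced genes, 0.53 ± 0.50 (SD, n = 4), yet missed the threshold (adjusted p = 0.0843 in limma), since its mice were at 1.23, 0.11, 0.24 and 0.55, with 1.09 in Cy5 and -0.02 in Cy3. Ifit3, an induced gene with strong response elements, was at 0.01, 0.001, -0.27 and -0.06, a mean of -0.08 ± 0.13 (SD, n = 4; adjusted p = 0.448 in limma). The remaining induced probes, for Ifi205, Ifi209, Ifitm10 and Isg20, had means between -0.14 and 0.09.

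**Figure D2:**
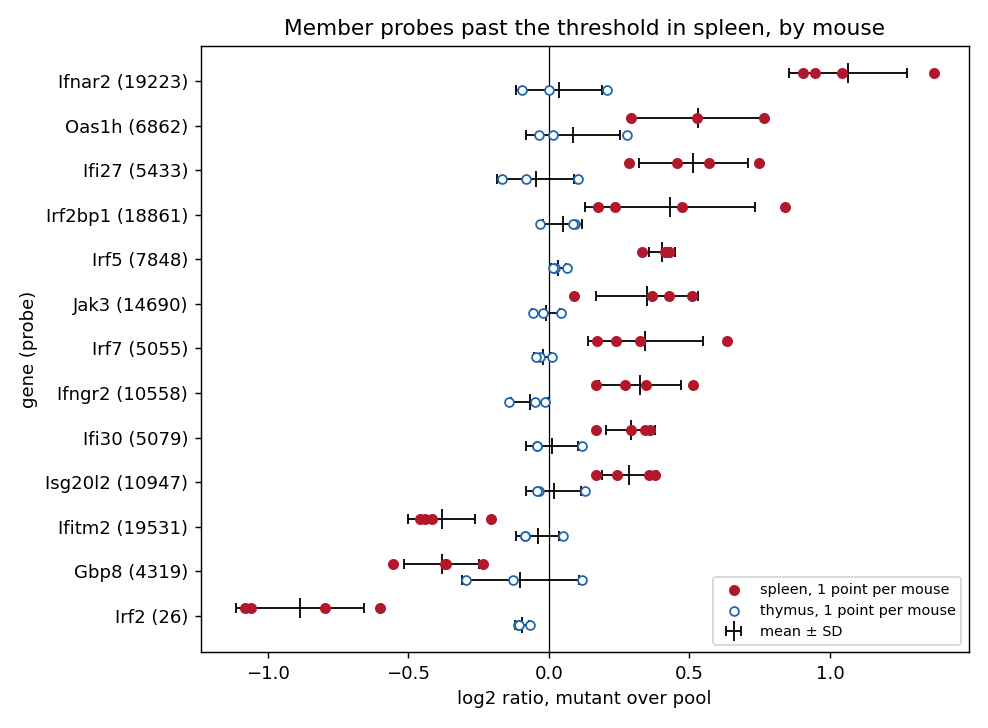
Log2 ratio of mutant over pool (horizontal axis) by mouse for the 13 member probes past the threshold in spleen (vertical axis), with filled points for spleen and open points for thymus. Vertical ticks are means and horizontal bars are ± SD. Spleen values of Ifnar2 lie at 0.90 to 1.37 and of Irf2 at -1.08 to -0.60, while the thymus mice of these probes lie between -0.11 and 0.21.

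The difference between the tissues was tested directly. It passed for 6 of 52 members (11.5%), 4 with spleen above thymus and 2 below, against 2692 of 19948 probes in all (13.5%, 5.64% above and 7.86% below). The 6 were Ifnar2 probe 19223, Irf2, Irf5, Ifi27, Ifngr2 and Ifitm2, given above. The share was close to that of all probes. The 4 mutant mice gave both tissues, so the mouse was also fitted as a replicate block over mice 1, 3 and 4. In that fit 2 members and 601 probes passed: Ifnar2 was at 1.04 (adjusted p = 0.0449 in limma) and Irf2 had an adjusted p of 0.0467, while Ifi27, Ifngr2, Ifitm2 and Irf5 had adjusted p of 0.0569, 0.0728, 0.0866 and 0.0966. Without mouse 1, 3 or 4 the thymus had 2 mice. Without mouse 3 or without mouse 4, 0 members passed. Without mouse 1, 6 members passed, of which 3 were among the 6 above and the others were Ifi30 at 0.37, Irf2bp1 probe 16884 at 0.38 and Isg20l2 probe 10947 at 0.36 (adjusted p = 0.0371, 0.0376 and 0.0494 in limma). Without mouse 2, whose thymus arrays were not in use, the 6 above passed.

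The arrays with the mutant in Cy5 and in Cy3 were also set side by side for spleen. Of the 13 members that passed, 12 had the same sign in both dyes (92.3%), against 4912 of the 5086 probes that passed in all (96.6%). The exception was Oas1h. Irf2bp1 probe 18861 had the same sign, with the dye gap of mouse 3 given above. Ifi35 and Irf8 probe 5593, which did not pass, had means of 1.09 and 0.92 in Cy5 and of -0.02 and -0.23 in Cy3.

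**Figure D3:**
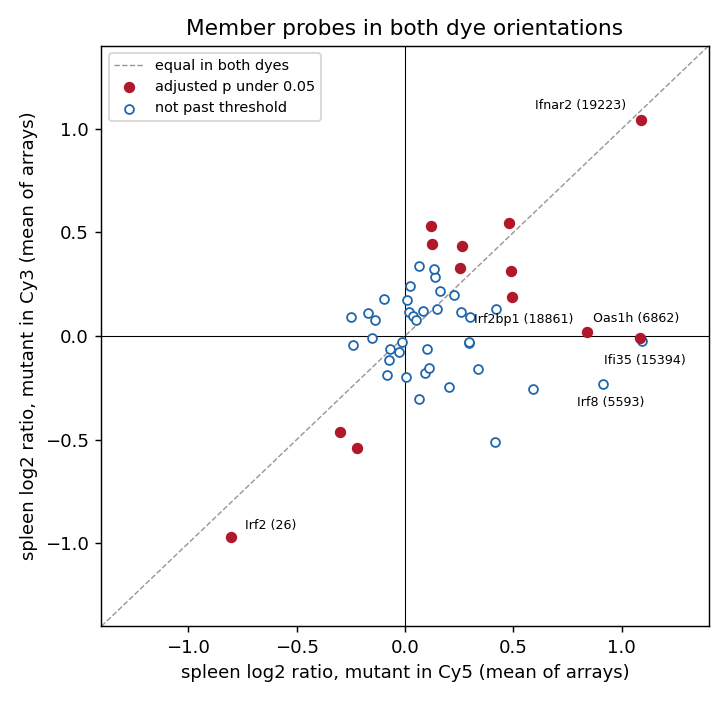
Mean spleen log2 ratio of each member probe with the mutant in Cy5 (horizontal axis) and with the mutant in Cy3 (vertical axis). Filled points passed an adjusted p of 0.05 in limma and the dashed line marks equal values. Ifnar2 (1.09 and 1.04) and Irf2 (-0.80 and -0.97) lie near the line, and Irf2bp1, Oas1h and Ifi35 lie near 0 on the vertical axis only.

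Genes with several probes let the annotation be set against the values. The members held 10 such genes with 21 probes, and 7 of the 12 probe pairs had the same sign in spleen. In 4 of these genes a probe passed, and in 0 of them did another probe pass too. Over all genes on the arrays with several probes, 4711 pairs had the same sign in 50.4% of cases in spleen (Spearman's rho 0.01 across pairs, which are not independent replicates) and in 49.2% in thymus (rho -0.03). A gene name in this text is thus the label of a probe and not a measured transcript. Splice variants, other transcripts caught by a probe and errors in the annotation were not tested.

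**Figure D4:**
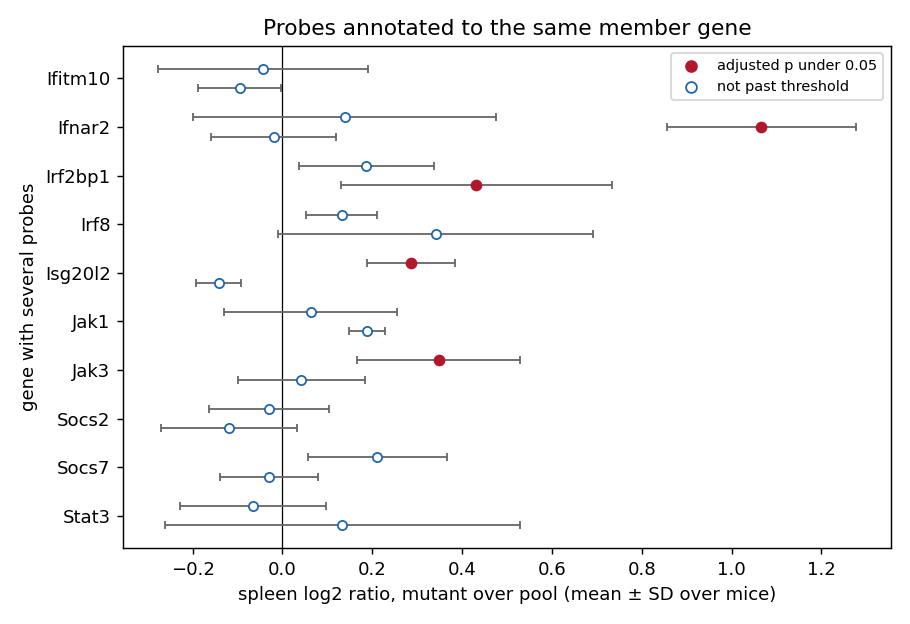
Mean spleen log2 ratio (horizontal axis, bars ± SD over mice) of the probes annotated to the same member gene (vertical axis), for the 10 genes with several probes. Filled points passed an adjusted p of 0.05 in limma. Ifnar2 has 1 probe at 1.07 and others at -0.02 and 0.14, and Isg20l2 has 1 probe on each side of 0.

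Promoter sequences show where interferon-activated factors could bind near the genes with the largest ratios. The motifs searched were GAAANNGAA, the core of the interferon-stimulated response element, and TTCNNNGAA, the gamma-activated site, which is its own reverse complement. Both strands were searched, matches of the motifs could overlap, and a promoter was 250 bases before to 50 bases after a start site in RefSeq (mouse assembly GRCm38.p6). Of the 43 member genes, 36 had a promoter in the table, 46 promoters in all. GAAANNGAA was found in 10 of the 46 member promoters (21.7%), against 8.56% of all 32851 promoters: 5 of 27 for receptors and signalling (18.5%) and 5 of 19 for induced genes (26.3%). TTCNNNGAA was found in 9 of the 46 (19.6%), against 8.30% of all promoters: 5 of 27 for receptors and signalling and 4 of 19 for induced genes (21.1%).

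The promoters of the members with the largest ratios of each sign, Ifnar2 and Irf2, are shown with those of Ifitm2, which was lower, and of Ifit3, a classical induced gene whose ratio was near 0. Each is written 5′ to 3′ on the gene's own strand, with motif matches in capitals. Ifnar2 (chr16:91372533-91372832, + strand) held a TTCNNNGAA match at position -214 from the start site. Irf2 (chr8:46739495-46739794, + strand) held a GAAANNGAA match at -241 and a TTCNNNGAA match at -224. Ifitm2 (chr7:140955912-140956211, - strand) held a GAAANNGAA match at -46. Ifit3 (chr19:34583279-34583578, + strand) held 3 matches to GAAANNGAA on the opposite strand, at -155, -121 and -102.
Ifnar2: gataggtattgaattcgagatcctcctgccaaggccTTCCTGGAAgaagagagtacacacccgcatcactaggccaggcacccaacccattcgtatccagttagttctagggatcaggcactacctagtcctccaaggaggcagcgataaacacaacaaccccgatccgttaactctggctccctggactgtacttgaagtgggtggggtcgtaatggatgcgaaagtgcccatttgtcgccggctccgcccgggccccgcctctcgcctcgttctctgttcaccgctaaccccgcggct
Irf2: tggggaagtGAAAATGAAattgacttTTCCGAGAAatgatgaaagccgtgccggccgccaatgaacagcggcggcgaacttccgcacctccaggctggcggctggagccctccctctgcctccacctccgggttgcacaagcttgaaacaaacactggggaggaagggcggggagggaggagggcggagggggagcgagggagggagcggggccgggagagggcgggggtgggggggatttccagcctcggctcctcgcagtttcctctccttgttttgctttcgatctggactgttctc
Ifitm2: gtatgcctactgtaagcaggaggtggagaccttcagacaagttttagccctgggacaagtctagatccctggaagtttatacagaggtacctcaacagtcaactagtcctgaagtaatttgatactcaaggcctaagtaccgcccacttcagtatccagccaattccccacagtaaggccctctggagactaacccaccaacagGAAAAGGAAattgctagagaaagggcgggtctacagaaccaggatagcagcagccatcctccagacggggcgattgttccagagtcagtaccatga
Ifit3: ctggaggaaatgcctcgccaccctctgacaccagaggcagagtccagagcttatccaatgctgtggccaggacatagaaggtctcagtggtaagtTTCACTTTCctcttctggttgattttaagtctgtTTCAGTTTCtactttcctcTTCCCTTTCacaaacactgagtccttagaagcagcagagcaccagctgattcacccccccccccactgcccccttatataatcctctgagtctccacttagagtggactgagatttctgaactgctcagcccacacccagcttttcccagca
Ifit3, with the most matches of these promoters, had a spleen ratio of -0.08, Ifnar2 probe 19223 one of 1.07 and Irf2 one of -0.89. These genes were chosen by their ratios, so they cannot show whether matches and ratios go together. A match describes the letters only.

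Other genes of the pathway, from sensing to damping, came from a list of textbook genes of which 49 were on the arrays. Of their 68 probes tested in spleen, 8 were higher and 11 were lower (27.9%, against 25.3% of all probes), and 0 passed in thymus. Those with the smallest p in spleen had both signs. Ly6e, an interferon-induced surface protein, was at -0.57 ± 0.02 (SD, n = 4; adjusted p = 0.00401 in limma). Gch1, the entry enzyme of tetrahydrobiopterin synthesis, was at -0.90 ± 0.22 (SD, n = 4; adjusted p = 0.00401). Pias3, an inhibitor of Stat3, was at 0.73 ± 0.17 (SD, n = 4; adjusted p = 0.00413). Cxcl9, a chemokine induced by interferon gamma, was lower at -0.57 ± 0.19 (SD, n = 4; adjusted p = 0.00769), as were the GTPase Igtp at -0.34 ± 0.07 and Slfn4 at -0.59 ± 0.30. The ubiquitin ligase Traf6 was higher at 0.36 ± 0.12. Myd88, the adaptor of Toll-like receptors, had 1 probe at -0.56 ± 0.17 and another at 0.31 ± 0.11 (SD, n = 4 each; adjusted p = 0.00740 and 0.0248), past the threshold in opposite directions.

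Markers of cell types that spleen and thymus hold were counted in spleen at the same threshold. Over all probes 25.3% passed and the median was 0.04. Each list held few probes, and no change in cell types is read from the counts. Probes for dendritic cells had 1 higher and 1 lower of 11 (median 0.03), macrophages and monocytes 1 higher and 3 lower of 9 (-0.05), and B cells 0 of 7 (0.04). T cells had 1 higher and 3 lower of 11 (0.07) and erythroid cells 3 lower of 12 (-0.13). The NK cell list had 2 probes on the arrays and both were higher: Nkg7 at 0.77 (adjusted p = 0.00401 in limma) and Gzma at 0.45 (adjusted p = 0.0107). In thymus none of these lists had a probe past the threshold. Their part in the ratios of the interferon genes was not tested.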

How the data were processed

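RNA of spleen and thymus from EMP3 mutant mice was co-hybridised with a wild-type pool on 2-colour arrays. Labelling was indirect, with Cy3 or Cy5 and from 20 µg of total RNA, per the labels' protocols. The authors deposited 1 log ratio per probe and array, read here as log2. Image software, background correction and normalization: not given in the sources used here. A constant of at least 15 in size stood at 25 to 137 probes of an array, positive with the mutant in Cy5 and negative in Cy3 on all 16 arrays. It was set to missing, and its signs were taken to mean that the ratios had already been turned to the mutant. Unturned ratios with a constant for an empty pool channel would have the same signs. The reading is therefore an assumption.

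Dye-exchanged pairs were averaged, and probes with at least 3 mice were tested. Each tissue was fitted alone with limma 3.58.1 in R 4.3.3 (lmFit and eBayes, ratio against 0), spleen minus thymus in 1 fit of both, and p-values were adjusted after Benjamini and Hochberg over all probes at 0.05. Spleen was fitted alone because a joint fit lends it the smaller spread of thymus. The test of spleen minus thymus used such a joint fit, so its SE and p rest on 1 spread shared by both tissues. The median SD between mice was 0.154 in spleen and 0.0855 in thymus. In simulated spleen data (20127 probes) 47 of 100 changes of 0.5 and 80 of 100 changes of 1 were found, with 7 false calls. In thymus data made the same way (20130 probes) 54 and 73 were found, with 2 false calls. No other probes were changed in the simulated data, while 5086 passed in the measured spleen. The simulated noise was independent between probes and did not model the pool or the dyes. How many false calls the measured arrays hold was not tested.

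The mouse numbers pair the tissues, since the labels give the same animal for both. Pearson's r between a mouse's deviations in spleen and in thymus was -0.06, -0.01 and -0.07 in mice 1, 3 and 4. The members, gene lists and tests were chosen with earlier results of these data known. Named with the value of every mouse were all receptor, kinase and Stat probes, all members past a threshold, the 2 smallest spleen p in each other role and the 4 smallest p in thymus. Of the other pathway genes, the 8 with the smallest spleen p among those past the threshold were named. The second Myd88 probe, the further Irf, Socs, Ifitm, Oas, Ifi27l2a and Ifit3 values and the NK cell probes were added after their values had been seen. All 43 member symbols were found in the RefSeq table, used for names and neighbours. Alternatives were another reading of the dye exchange, centring, a running median over 101 probe IDs, the placeholders kept, a pool variance, complete probes only, a 1.2-fold test, 1 fit for both tissues, mouse 2 kept, the mouse as a block and leaving out each mouse.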

Additional observations from a re-analysis of the deposited data

Results flagged for a closer look

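In spleen, 51 member probes with 4 mice were searched for a mouse apart from the others by Dixon's criterion, and 6 had one. By chance alone, about 1 in 20 of the probes tested would be flagged. The Irf1 probe was at 0.242 in mouse 1, with the others at -0.159 to -0.136. Mouse 1 also stood apart at Irf2bp1 probe 16884, at -0.037 with the others at 0.232 to 0.28, and at Socs2 probe 18445, at -0.229 with the others at 0.0305 to 0.0445. Irf5 was at 0.333 in mouse 3, with the others at 0.415 to 0.429. Ifitm10 probe 17725 was at 0.305 in mouse 4, with the others at -0.181 to -0.113. Ifitm2 was at -0.205 in mouse 2, with the others at -0.459 to -0.417.

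Spleen and thymus differed in limma at 6 members: Ifnar2 probe 19223 by 1.03, Irf2 by -0.791, Ifi27 by 0.562, Ifngr2 by 0.393, Irf5 by 0.368 and Ifitm2 by -0.341. At 2 further probes every spleen mouse was above 0 and every thymus mouse below it, by 0.598 for Ifi35 and by 0.177 for Irf8 probe 18418. Their differences missed the threshold in limma (adjusted p = 0.150 and 0.170). How many of all probes had this pattern was not counted. The spleen means in Cy5 and Cy3 were 1.09 and -0.02 for Ifi35 and 0.29 and -0.03 for Irf8 probe 18418.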

How the results depend on the processing

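With the Cy3 arrays turned in sign, 1 probe and 0 members passed in spleen and 0 and 0 for the difference, and the spleen medians were 0.07 for receptors and signalling and -0.0306 for induced genes. Under that reading these values reversed: in the difference Ifitm2 0.0994, Ifnar2 probe 19223 -0.0229 and Irf2 0.0254; in spleen Gbp8 0.083, Ifi27 -0.0334, Ifi30 -0.038, Ifitm2 0.159, Ifnar2 probe 5222 0.00813, Ifngr1 0.133, Ifngr2 -0.205, Irf2 0.0823, Isg20l2 probe 10947 -0.159, Jak1 -0.0286 (probe 6169) and -0.0139 (19432), Jak3 -0.137 (623) and -0.085 (14690), Stat2 0.226, Stat4 -0.135 and Stat5a -0.108; in thymus Irf2 0.0568 and Irf4 0.101. The turned mean of a pair is set by the Cy5 value minus the Cy3 value, so its sign shows which was larger. If the signs had already been turned, as taken here, it is a dye difference and not a direction of the mutant effect. A pool variance left 1689 probes and 3 members in spleen and 187 and 1 for the difference. A 1.2-fold test left 887 and 2 in spleen and 4 and 0 for the difference. With both tissues in 1 fit, 22 members passed in spleen. The running median left 9 members in spleen (6 higher, 3 lower, against 10 and 3), turned the split over all probes to 1703 higher and 2264 lower, against 2691 and 2395, gave a median of 0.0474 for receptors and signalling and reversed Jak1 probe 6169 to -0.00775, Jak2 to -0.0469 and Stat5a to -0.00637. With array medians at 0, Jak2 was at -0.00425. The replicate block of the mouse gave 601 probes and 2 members for the difference, and keeping thymus mouse 2 gave 4484 and 11.

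Leaving out mouse 1, 2, 3 or 4 gave 4867, 2351, 3859 and 2366 probes and 13 (9 of them called with all mice), 5, 8 and 4 members in spleen. It gave 0 to 1 probes in thymus (1 without mouse 1), and 0 to 2055 probes and 0 to 6 members for the difference. The spleen medians then ran from 0.09 to 0.15 for receptors and signalling and from 0.02 to 0.13 for induced genes. Uncalled probes near 0 reversed: Ifnar2 probe 5222 at 0.0142 and 0.0267 without mouse 1 and 3, probe 18954 at -0.00683 without mouse 2, Ifngr1 at 0.0202 and Stat3 probe 1095 at 0.00883 without mouse 1, Jak1 probe 19432 at -0.0307 and Stat2 at 0.0095 without mouse 4. No member passed in thymus in any alternative run.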
